A study of Mus musculus with 8 samples.

Results

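The SOCS family was followed here across the 8 libraries of the series. Its members were taken by name, Socs1 to Socs7 and Cish, and all 8 were among the 22173 gene symbols of the count tables. SOCS proteins are intracellular inhibitors of cytokine signaling. Cytokine receptors activate JAK kinases, these phosphorylate STAT transcription factors, and STATs switch on genes that include several SOCS genes, which closes a negative feedback loop. Each SOCS protein has an SH2 domain, which binds phosphorylated tyrosines, and a SOCS box, which recruits elongins and a cullin to form a ubiquitin ligase. SOCS1 and SOCS3 also block JAK kinase activity directly; in macrophages SOCS1 restrains the responses to interferon-γ and lipopolysaccharide (LPS), and SOCS3 restrains signaling by the IL-6 receptor.

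Bone marrow-derived macrophages (BMDMs) of wild-type (WT) mice were differentiated to day 7. The M0 state was taken with G-1, a GPER1 agonist, at 10 μmol/L for 48 h, or without G-1. The LPS/INF state had 100 ng/ml LPS and 20 ng/ml interferon-γ for 48 h, together with G-1 or without it, and the IL4 state had 20 ng/ml IL-4 for 48 h, together with G-1 or without it. Primary tubular epithelial cells (TECs) were kept for 24 h across a trans-well membrane from rinsed LPS/INF macrophages that had been given G-1 or not. RNA of 3 samples per group was pooled into 1 library, so no pair has a replicate and the spread between cultures is unknown. The study's methods list the 4 pairs under separate numbers for RNA extraction, without saying whether they were handled apart. Any difference between such sets would coincide with the macrophage states and cannot be told apart from them. For the M0 library without G-1 the sources give differentiation alone, with no vehicle and no matching 48 h, so that G-1 and time in culture cannot be told apart in the M0 pair, nor stimulation and time in comparisons over that library. G-1 was dissolved in DMSO, and the sources name no vehicle for the other sequenced controls either. Where a control had none, G-1 and DMSO cannot be told apart.

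Library totals ran from 35027179 to 40671596 counts. The LPS/INF library exceeded the M0 library by 2-fold or more in 6 of 8 M1 markers, among them Nos2 with 44992 counts against 2. The library labelled IL4 went against its label: of 8 M2 markers, 4 had at least 20 counts in either library, 0 of these were at least 2-fold higher than in M0 and 2 were lower, Chil3 (9 counts against 68) and Clec10a (1363 against 4338). Arg1 had 7 counts in it against 1 in M0, Retnla and Ccl17 had 0 in both, and Mrc1 was 1.78-fold higher. It is therefore called the library labelled IL4, and a direction drawn from it holds for that library only. All 8 epithelial markers were above 20 counts in both TEC libraries, together with 6 of 6 endothelial markers, with summed levels of 103 CPM (counts scaled to the library total) beside G-1-pretreated and 91.9 CPM beside untreated macrophages, and with 6 and 7 of 8 fibroblast markers. Of 8 proximal tubule markers 6 reached 20 counts in both TEC libraries, and Slc34a1 and Slc22a6 had 0 counts in both. Their summed level was low, 30.04 CPM beside G-1-pretreated and 31.47 CPM beside untreated macrophages. That was below the endothelial sums and below the fibroblast sums of 396.9 CPM and 391.6 CPM in these libraries. The epithelial markers summed to 7438 CPM and 6678 CPM in them. All 12 macrophage markers were measured in M0 macrophages. In such cultures fewer cells of a type and less RNA per cell cannot be told apart.

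Promoter stretches are shown for the 3 members in whose promoter window a match was found, so each stretch holds a match by choice. Interferon and STAT signaling act through letters of this kind. Promoters of 4 members were found in the RefSeq table on GRCm38.p6 (250 bases before and 50 after the start). Capitals mark TTCNNNGAA, the letters that STAT dimers read, or GAAANNGAAA, the letters that interferon regulatory factors read, each searched on both strands.
Socs1 chr16:10785537-10785656, minus strand, the 120 bases before the start: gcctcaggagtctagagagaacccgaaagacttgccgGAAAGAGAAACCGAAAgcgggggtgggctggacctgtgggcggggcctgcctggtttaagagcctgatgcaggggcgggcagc
Socs3 chr11:117969437-117969556, minus strand, from 190 to 71 bases before the start: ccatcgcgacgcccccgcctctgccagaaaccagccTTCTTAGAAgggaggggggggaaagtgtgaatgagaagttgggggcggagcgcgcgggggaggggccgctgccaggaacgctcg
Cish chr9:107296656-107296685, plus strand, 30 bases around the start: gttTTCCTGGAAagTTCTTGGAAatctgtc
The Socs1 stretch holds 2 overlapping matches of GAAANNGAAA, which 3.44% of 32851 RefSeq promoters contain in such a window. The Socs3 stretch holds 1 and the Cish stretch 2 matches of TTCNNNGAA, found in 8.30% of promoters, while TTCNNNNGAA, the spacing preferred by STAT6, was in 6.95% of promoters and in none of the 4 members' windows. Socs4 had no match of any of these letters in its window. The starts are those of the RefSeq table; GENCODE begins the longest Cish transcript further upstream and the coding Socs3 transcript further downstream. The extent of Socs3 in RefSeq, given at the end, covers all its transcript models and begins upstream of that start, so the Socs3 stretch lies within it. A match is a description of letters and not a measured binding site.

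The members differed widely in how far their level ranged. Socs3 spanned 0.405 to 714 CPM over the 8 libraries, Socs1 0.439 to 90.1 CPM, Socs2 0.172 to 33.5 CPM and Cish 0.362 to 17.6 CPM. Socs4 to Socs7 ranged less widely. The range of Socs6 was 13.2 to 109.5 CPM, that of Socs5 6.78 to 52.0 CPM, that of Socs4 14.9 to 55.3 CPM and that of Socs7 16.0 to 44.6 CPM. Their highest level was therefore 2.79 times (Socs7) to 1762 times (Socs3) their lowest.

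**Figure D1:**
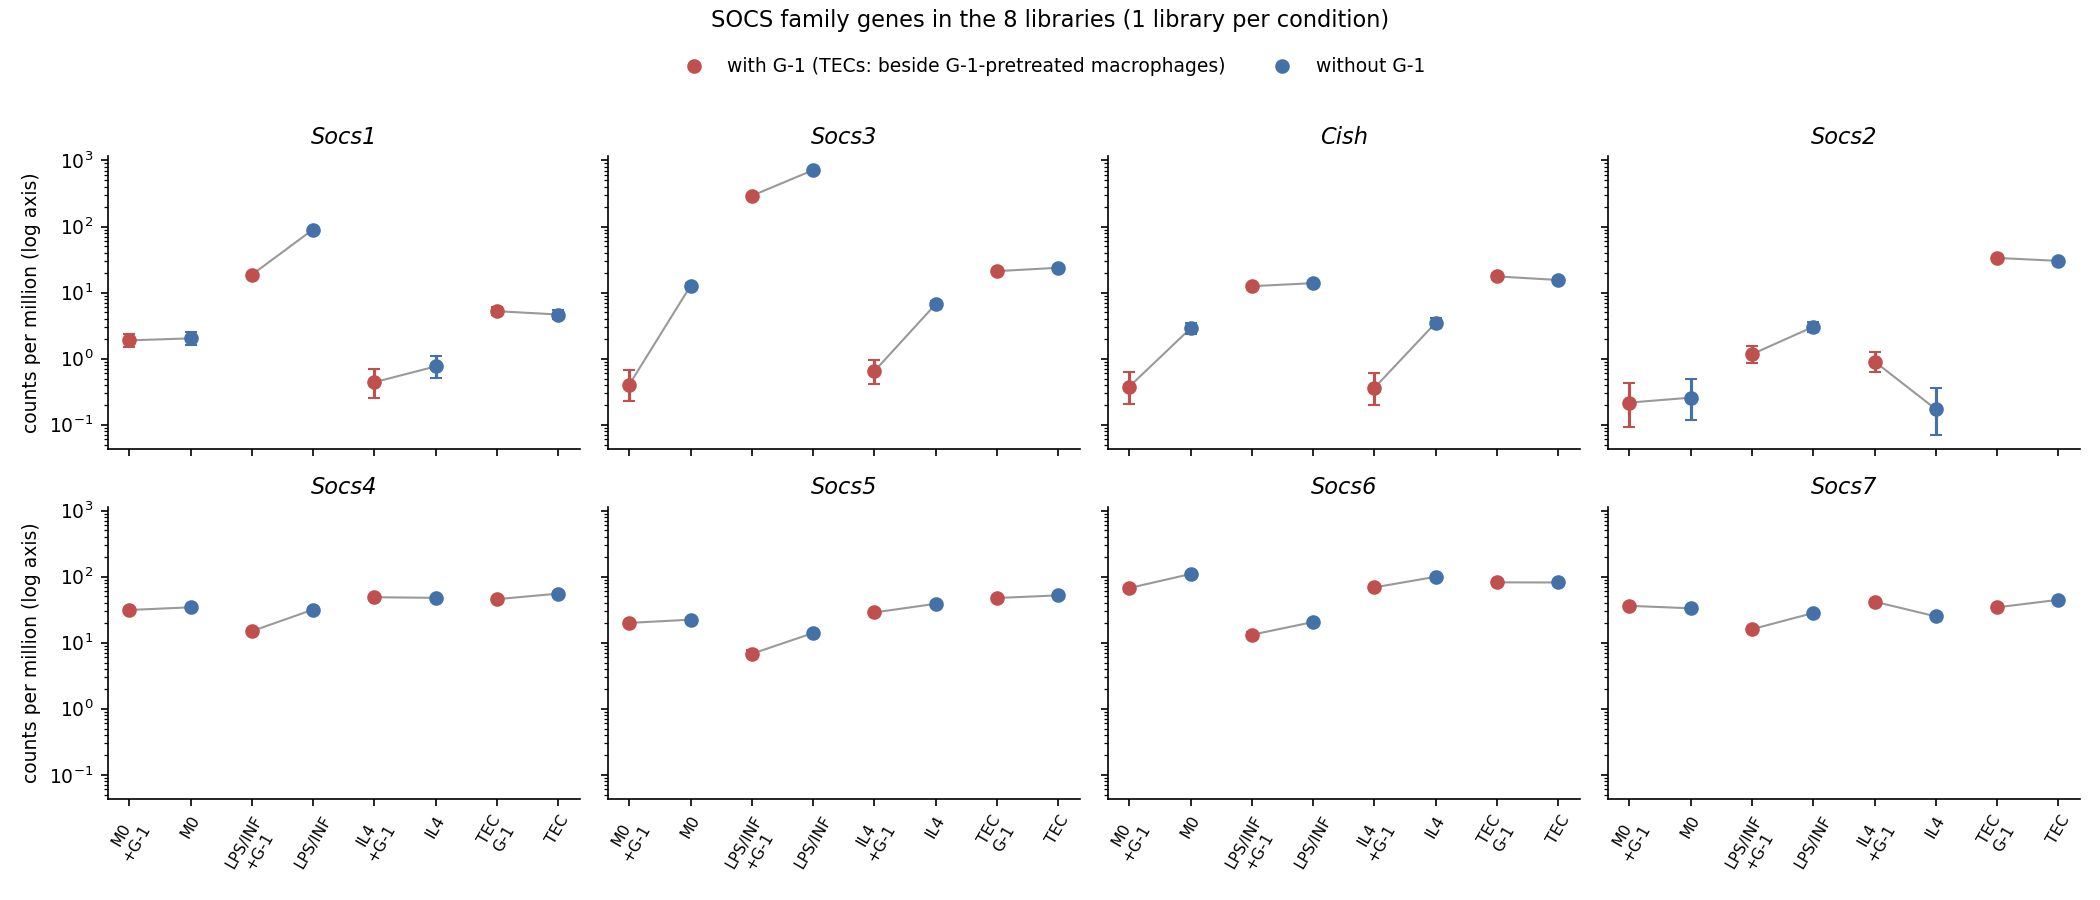
Levels in CPM (log axis) of the 8 SOCS family genes in the 8 libraries; points are single pooled libraries, bars are 95% Poisson intervals of counting error, red marks libraries with G-1, blue those without, and grey lines join a pair. Socs3 sat at 0.405 CPM in M0 macrophages with G-1 and at 12.7 CPM without, whereas Socs4 to Socs7 stayed between 6.78 and 109.5 CPM throughout.

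Scaled by transcript length as well, in TPM, the leading member differed between LPS/INF and the other macrophage states. In M0 macrophages Socs6, studied mainly in KIT and insulin receptor signaling, led with 27.3 TPM with G-1 and 41.8 TPM without G-1. It also led in the libraries labelled IL4, with 26.7 TPM with G-1 and 38.1 TPM without. In the LPS/INF state Socs3 made up 85.5% of the summed family level with G-1 (221 TPM) and 84.3% without G-1 (652 TPM), and Socs1 followed with 12.3 TPM with G-1 and 72.2 TPM without. In TECs no member led by much: Socs2 had 36.2 TPM beside G-1-pretreated and 36.4 TPM beside untreated macrophages, and Socs6 had 32.6 TPM and 36.2 TPM in these libraries. The summed family level was 258 TPM in LPS/INF macrophages with G-1 and 774 TPM without. It was 64.2 TPM in M0 macrophages with G-1 and 90.9 TPM without, and 74.0 TPM in those labelled IL4 with G-1 and 91.4 TPM without. TECs had 160 TPM beside G-1-pretreated and 185 TPM beside untreated macrophages. The trends of fold with transcript length described below were not removed from these levels.

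**Figure D2:**
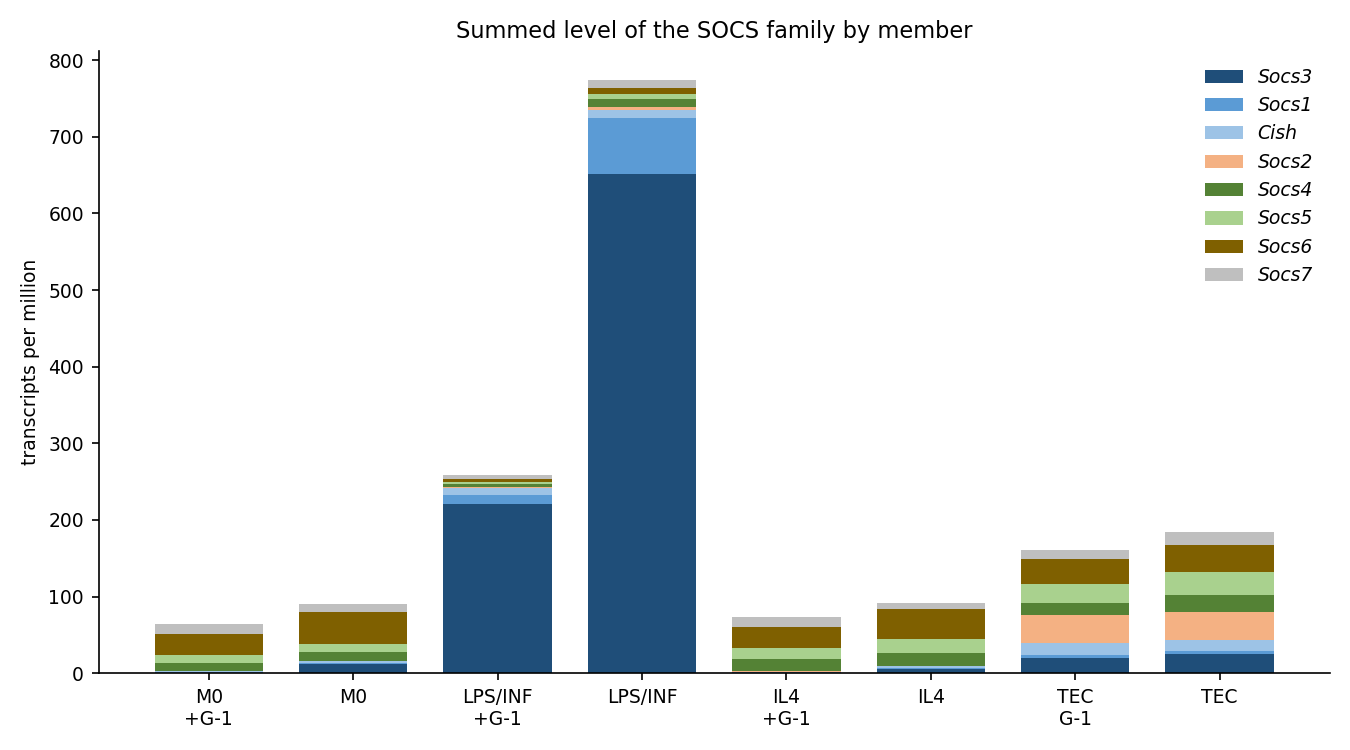
Stacked bars of length-scaled levels in TPM for the 8 SOCS family genes in each library (1 pooled library per bar, so no error bars). The sum reached 258 TPM in LPS/INF macrophages with G-1 and 774 TPM without, most of it Socs3 (85.5% and 84.3%), against 64.2 to 185 TPM in the other 6 libraries.

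Socs3, which binds the IL-6 receptor chain and JAK kinases, was the member that differed most with G-1 in unstimulated cells. It had 15 counts in M0 macrophages with G-1, against 444 without, and was 28.1-fold lower (95% counting interval 16.8 to 50.6). In the libraries labelled IL4 it had 25 counts with G-1, against 271 without, and was 10.4-fold lower (6.89 to 16.3). LPS/INF macrophages held 11749 Socs3 counts with G-1 and 28012 without, a 2.13-fold lower level (2.08 to 2.17). All 3 macrophage pairs thus had less Socs3 with G-1. In TECs the counts were 767 beside G-1-pretreated and 913 beside untreated macrophages, 1.13-fold lower (1.03 to 1.25) and under the 2-fold limit used for calls.

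Cish encodes CIS, which is induced through STAT5 and restrains signaling by cytokines such as IL-2 and GM-CSF. It had 14 counts in M0 macrophages with G-1, against 101 without, 6.84-fold lower (3.89 to 12.96). The libraries labelled IL4 gave 14 counts with G-1, against 142 without, 9.72-fold lower (5.61 to 18.2). In LPS/INF macrophages Cish did not share this: 503 counts with G-1 against 545 without, a fold of 1.03 (0.914 to 1.17). TECs gave 638 counts beside G-1-pretreated and 596 beside untreated macrophages, a fold of 1.12 (1.004 to 1.26). An antisense gene and a pseudogene overlap Cish in GENCODE and strand use in counting was not given, so its counts may hold reads of either.

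Socs1, the main brake on interferon-γ signaling, differed with G-1 in the LPS/INF state. It had 748 counts in LPS/INF macrophages with G-1 and 3534 without, 4.22-fold lower (3.90 to 4.57). M0 macrophages had 70 counts with G-1 and 71 without, a fold of 1.04 (0.737 to 1.47). The libraries labelled IL4 had 17 and 31 counts, with and without G-1, and the interval of the fold (0.572; 0.297 to 1.07) reached across 1. Whether the G-1 difference of Socs1 itself differs between states was not tested for lack of replicates. TECs had 190 counts beside G-1-pretreated and 179 beside untreated macrophages, a fold of 1.11 (0.904 to 1.37).

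Socs2, known for restraining growth hormone signaling, was scarce in macrophages. It had 35 counts in the library labelled IL4 with G-1, against 7 without, and was 5.22-fold higher (2.28 to 13.9). In LPS/INF macrophages it had 47 counts with G-1, against 119 without, and was 2.26-fold lower (1.60 to 3.24). M0 macrophages had 8 counts with G-1 and 9 without, too few to be called. These 3 pairs rested on few counts, and the 2 calls went in opposite directions. TECs held 1216 Socs2 counts beside G-1-pretreated and 1160 beside untreated macrophages, a fold of 1.10 (1.01 to 1.19). With the length and GC trend of that pair removed, as described below, the Socs2 log2 fold was -0.02.

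The other 4 members stayed within 2-fold in every G-1 pair. Socs4 and Socs5, linked to turnover of the EGF receptor, had folds of 1.02 and 0.995 in M0 macrophages and 1.01 and 0.733 in those labelled IL4. Socs6 was 1.46-fold lower with G-1 in the M0 pair (2487 counts against 3837) and 1.46-fold lower in the pair labelled IL4 (2656 against 4045). Socs7, which binds insulin receptor substrates, was 1.21-fold and 1.66-fold higher in these same pairs. In LPS/INF macrophages all 4 were lower with G-1, by 1.85-fold for Socs4, 1.79-fold for Socs5, 1.53-fold for Socs7 and 1.36-fold for Socs6. Those 4 have long transcripts, from 4648 to 7015 bases, and in that pair the fold of all genes ran with transcript length (Spearman's rho -0.57 across 10867 genes, which are not independent replicates). With running medians over length and GC content removed, the log2 folds were 0.01 for Socs4, -0.49 for Socs5, 0.31 for Socs6 and 0.10 for Socs7, whereas Socs1 kept -2.28, Socs2 -1.37 and Socs3 -1.40. The TEC pair had such a trend too (Spearman's rho -0.60 across 12735 genes). With it removed there, log2 folds were -0.005 for Socs4, -0.009 for Socs5, -0.004 for Socs7 and 0.21 for Socs6. Socs3 had -0.26, Socs1 0.14 and Cish 0.16 in TECs.

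**Figure D3:**
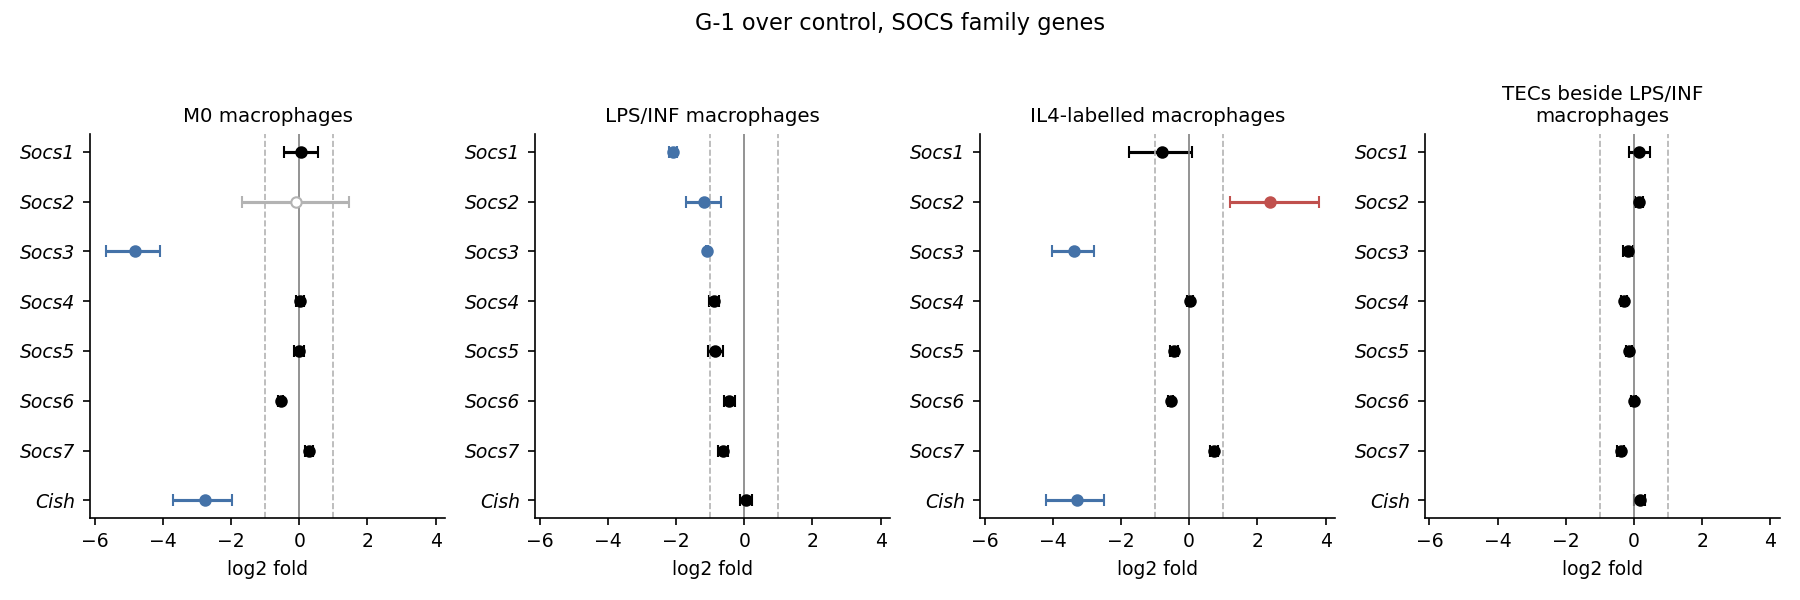
Log2 folds of the 8 SOCS family genes, G-1 over control, in each of the 4 pairs; bars are 95% counting intervals, dashed lines mark 2-fold, blue is called lower, red higher, black within 2-fold and open grey under 20 counts. Socs3 was called lower in all 3 macrophage pairs (28.1-fold, 2.13-fold and 10.4-fold), Cish in the M0 and IL4-labelled pairs, and no member was called in TECs.

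Counted together, 2 of 7 measured members were past 2-fold lower in M0 macrophages with G-1 and 0 higher, where 12.6% of all genes with at least 20 counts were lower and 12.2% higher. In LPS/INF macrophages 3 of 8 were lower and 0 higher, against 12.1% and 9.44% of all genes. In the pair labelled IL4, 2 of 8 were lower and 1 higher, against 7.78% and 5.95% of all genes. In TECs 0 of 8 were lower and 0 higher, against 2.82% and 1.39% of all genes. The members' median log2 fold was -0.01, -0.86, -0.50 and -0.07 in these pairs in the same sequence, while the median over all genes was within 0.02 of 0. Scaling by total counts in place of edgeR's TMM factors shifted the median of all genes by -0.16 in the M0 pair and by -0.20 in the LPS/INF pair, and then Socs4 and Socs5 were past 2-fold lower in LPS/INF macrophages (log2 folds -1.09 and -1.04).

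Across the 3 macrophage states, the G-1 term of a joint model of 6 libraries was tested by quasi-likelihood in edgeR, with Benjamini-Hochberg adjustment. Socs3 had a log2 fold of -2.99 (SE 0.76) with an adjusted p of 0.215, and it was lower with G-1 in 3 of 3 states. Cish followed with -1.94 (SE 0.75, adjusted p of 0.350), Socs1 with -1.02 (SE 0.46, adjusted p of 0.403) and Socs6 with -0.54 (SE 0.20, adjusted p of 0.334). No member passed an adjusted p of 0.05 in edgeR, nor did any of the 11921 genes tested (0% higher and 0% lower; 1634 genes at an unadjusted p under 0.05). DESeq2 with the same model called 320 genes higher and 468 lower. In it Socs3 had an adjusted p of 3.05e-05 and Cish of 0.0401. Without the LPS/INF pair, edgeR's adjusted p was 0.0164 for Socs3 and 0.0368 for Cish, with log2 folds of -4.07 and -3.03. That fit called 422 of 11608 genes higher and 556 lower, so the gain in calls was not particular to these members. It also leaves out the pair in which Cish was not called.

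LPS/INF stimulation was accompanied by much higher levels of Socs1, Socs2, Socs3 and Cish. Under G-1, Socs3 was 833-fold higher in LPS/INF than in M0 macrophages (95% counting interval 505 to 1488), Cish 38.2-fold (22.6 to 70.4), Socs1 11.4-fold (8.88 to 14.7) and Socs2 6.25-fold (2.92 to 15.3). Without G-1, Socs3 was 62.5-fold higher (56.9 to 68.8), Socs1 49.3-fold (39.0 to 63.3), Socs2 13.1-fold (6.68 to 29.4) and Cish 5.35-fold (4.32 to 6.68). The wide gap for Socs3 came with M0 denominators of 15 counts under G-1 and 444 counts without, and the M0 denominators of Cish were 14 and 101 counts. The comparisons without and with G-1 rest on different libraries, and the difference between them was not tested.

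Socs6 went the other way. It had 530 counts in LPS/INF and 2487 in M0 macrophages under G-1, 4.41-fold lower (4.02 to 4.86), and 806 against 3837 counts without G-1, 4.80-fold lower (4.45 to 5.19). Under G-1 the folds of all genes ran with transcript length here too (Spearman's rho -0.47 across 11016 genes), and with the length and GC trend removed Socs6 was 2.72-fold lower under G-1 and 4.72-fold lower without. Socs5 was 2.54-fold lower in LPS/INF macrophages under G-1 (2.21 to 2.93), a call that was lost with the length trend removed (log2 fold -0.88). Without G-1 it was 1.43-fold lower. Socs4 and Socs7 were 1.81-fold and 1.95-fold lower under G-1, but had log2 folds of 0.09 and -0.10 with that trend removed. Without G-1 their folds were 1.03 and 0.943. Together 4 of 8 members were at least 2-fold higher and 2 lower under G-1, where 17.7% of all genes were higher and 19.7% lower. Without G-1, 4 of 8 were higher and 1 lower, against 16.8% and 17.4% of all genes.

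In the 6-library edgeR fit the LPS/INF term was past an adjusted p of 0.05 for 3 members. Socs3 had a log2 fold of 7.77 (SE 1.07, adjusted p of 0.0159), Socs1 of 4.60 (SE 0.59, adjusted p of 0.0139) and Socs6 of -2.19 (SE 0.26, adjusted p of 0.0106). Each of these had the same direction in 2 of 2 comparisons. Over all genes 4.97% were called higher and 4.92% lower. Cish (4.05, SE 0.94, adjusted p of 0.0522) and Socs2 (3.33, SE 1.04, adjusted p of 0.103) missed this limit in edgeR, and passed it in DESeq2 with 8.75e-06 and 0.0164. DESeq2 called more genes for this term, 1231 higher and 1267 lower of 12580 with an adjusted p.

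The library labelled IL4 had fewer members past 2-fold, and its comparisons share the M0 libraries with those of the LPS/INF state. Under G-1, Socs1 had 17 counts in it and 70 in M0 macrophages, 5.26-fold lower (3.06 to 9.54), and Socs2 had 35 and 8 counts, 3.42-fold higher (1.56 to 8.54). Without G-1, Socs1 had 31 counts against 71, 2.89-fold lower (1.87 to 4.56), and Socs3 had 271 against 444, 2.07-fold lower (1.77 to 2.41). The Socs3 call sat at the 2-fold limit, and its log2 fold was -1.05, but -0.93 under total counts and -0.73 with the length trend removed. Cish had 14 counts in both libraries under G-1 and 142 against 101 without G-1, a fold of 1.11 (0.857 to 1.45). Socs5 was 1.60-fold higher without G-1 (1.47 to 1.74). Thus 1 of 7 measured members was higher and 1 lower under G-1, against 6.7% and 6.11% of all genes, and 0 of 7 were higher and 2 lower without G-1, against 7.7% and 6.64% of all genes. In the edgeR fit no member passed for this state (Socs1 had a log2 fold of -2.04, SE 0.57, adjusted p of 0.634), and 0% of genes were called higher and 0% lower, with 814 genes at an unadjusted p under 0.05 and 67 higher and 106 lower in DESeq2.

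**Figure D4:**
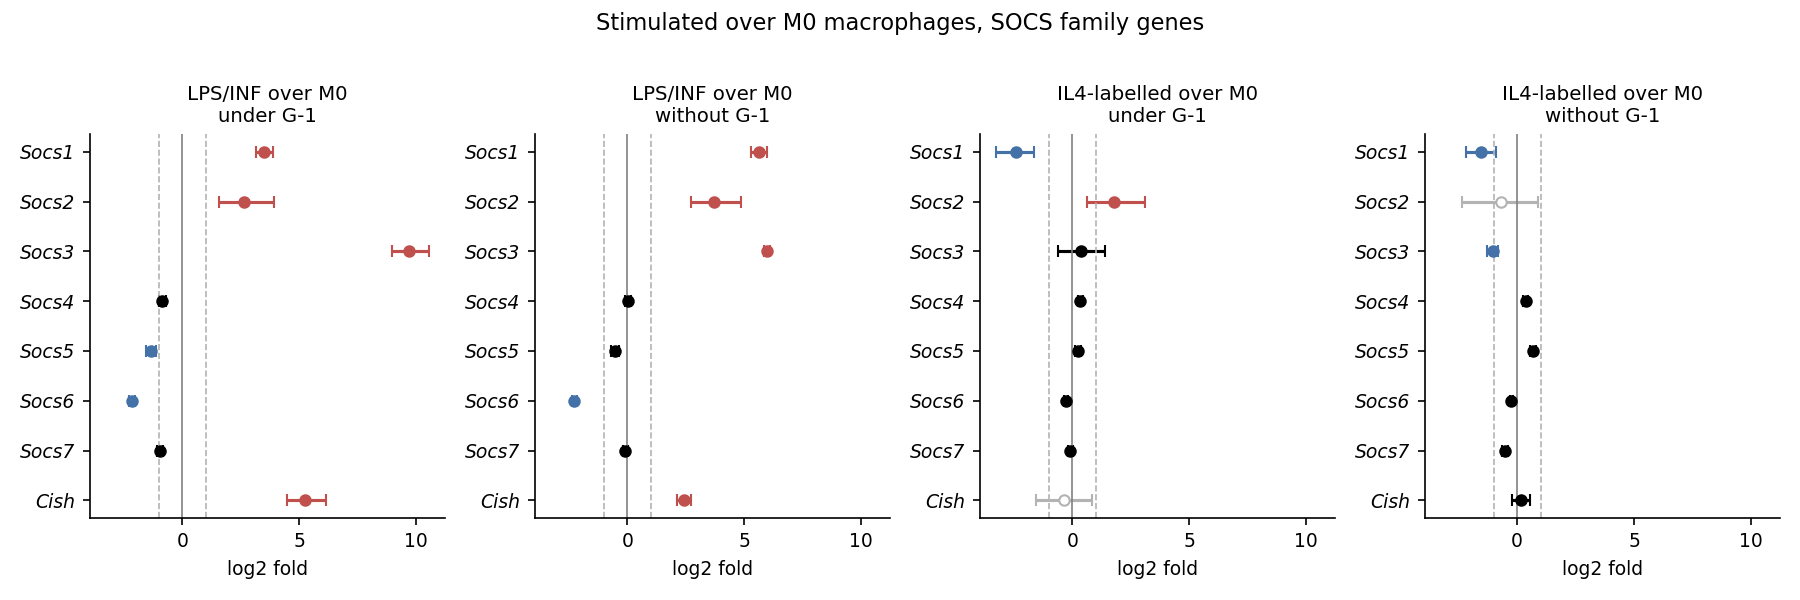
Log2 folds of the 8 SOCS family genes in stimulated over M0 macrophages, under G-1 and without G-1, with 95% counting intervals and dashed lines at 2-fold; red is called higher, blue lower, black within 2-fold and open grey under 20 counts. In the LPS/INF panels Socs1, Socs2, Socs3 and Cish lay to the right and Socs6 to the left, under G-1 (4.41-fold lower) as without it (4.80-fold lower).

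The order of the libraries differed between members. For Socs3 it ran from LPS/INF without G-1 through LPS/INF with G-1, TECs, M0 and the library labelled IL4 to the 2 G-1 libraries of those states. Neighbours in it did not overlap in their counting intervals, except the 2 TEC libraries and the last 2. Socs1 had the same 2 libraries on top, and the counting intervals of the 2 libraries of the TEC, the M0 and the IL4-labelled state overlapped. Cish was highest in TECs (17.6 CPM beside G-1-pretreated and 15.5 CPM beside untreated macrophages), where each neighbour down to LPS/INF with G-1 at 12.5 CPM overlapped the next. Socs2 was highest in TECs by far, with 33.5 and 30.2 CPM, against at most 3.03 CPM in macrophages. Socs4 and Socs5 were highest in TECs beside untreated macrophages and lowest in LPS/INF macrophages with G-1, which was also the lowest library for Socs6 and Socs7. These orders are by CPM, from which the length trends of the TEC and LPS/INF pairs were not removed.

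Levels in TECs were set beside those of macrophage RNA, since both cell types shared a culture. Relative to LPS/INF macrophages under G-1, TECs beside them had 28.1% of the Socs1 and 7.23% of the Socs3 level, while 11 measured macrophage markers had a median of 0.732% (0.0537 to 34.4%). Relative to LPS/INF macrophages without G-1, TECs beside them had 5.17% of the Socs1 and 3.32% of the Socs3 level, and 12 macrophage markers a median of 1.06% (0 to 6.72%). Socs1 and Socs3 thus lay above the median and within the range of the markers, and the part of macrophage RNA in them was not tested. Socs2 in TECs was at 2866% and 994% of the macrophage level, and Cish at 141% and 112%. Macrophage markers summed to 126 CPM in TECs beside G-1-pretreated and 223 CPM beside untreated macrophages, and 6 of 11 were lower (Adgre1, Csf1r, Itgam, Fcgr1, Marco and Ptprc) and 0 higher.

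The rest of the JAK-STAT pathway gave the setting for these values. Of the cytokines that signal through it, 4 of 6 measured were past 2-fold lower in M0 macrophages with G-1 and 0 higher. Of all genes 12.6% were lower and 12.2% higher there. Il10, an anti-inflammatory cytokine that acts through STAT3, had 5 counts with G-1 against 181 without (34.3-fold lower, 14.4 to 107), Il15 was 3.92-fold lower and Ebi3, a subunit of IL-27, 2.93-fold lower. In LPS/INF macrophages 7 of 14 were lower and 0 higher, against 12.1% and 9.44% of all genes. Il12b and Il12a, the subunits of IL-12, were 39.3-fold and 19.3-fold lower, and Csf3, which encodes G-CSF, was 2.74-fold lower. In the pair labelled IL4, 4 of 7 were lower and 0 higher, against 7.78% and 5.95% of all genes. Il10 had 5 counts against 130 there (24.9-fold lower). Ifng, Ifnb1, Il4 and Il13 had at most 1 count in any macrophage library.

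Some receptors were past 2-fold in each direction. With G-1, 9 of 24 were lower and 4 higher in M0 macrophages, against 12.6% and 12.2% of all genes. The LPS/INF pair had 4 of 22 lower and 2 higher, against 12.1% and 9.44% of all genes, so that both counts lay near the background. In those labelled IL4, 7 of 24 were lower and 2 higher, against 7.78% and 5.95% of all genes. Lifr, the receptor of leukemia inhibitory factor, was 57.3-fold lower in M0 macrophages (27 counts with G-1 against 1631 without) and 17.7-fold lower in those labelled IL4. Il7r, a receptor subunit for IL-7, was 10.7-fold higher in M0 macrophages, 2.96-fold higher in LPS/INF macrophages and 9.78-fold higher in those labelled IL4. Il21r was 9.56-fold and 3.52-fold lower in the M0 and IL4-labelled pairs, and Ifngr1, a subunit of the interferon-γ receptor, 4.29-fold lower in M0 macrophages. Il4ra was 3.25-fold lower in those labelled IL4. It was called lower in M0 macrophages too (2624 counts with G-1 against 9857 without). Il6ra, which binds IL-6, was called lower in the M0, LPS/INF and IL4-labelled pairs. In LPS/INF macrophages it was 3.17-fold lower, but its log2 fold was -0.87 with the length trend removed. In the pair labelled IL4 it was 3.02-fold lower (log2 fold -1.62 with that trend removed). M0 macrophages had 1302 Il6ra counts with G-1 against 4973 without.

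Among the 4 JAK kinases Jak3 was 2.21-fold lower with G-1 in M0 macrophages and 3.53-fold lower in those labelled IL4, and Jak2 was 2.67-fold lower in LPS/INF macrophages (8135 counts against 24344; log2 fold -0.96 with the length trend removed). Of the 6 STAT genes listed, Stat2 was 2.62-fold and Stat4 3.91-fold lower in M0 macrophages, and Stat4 was also lower in LPS/INF macrophages (2.49-fold) and in those labelled IL4 (3.87-fold). None of the 6 was called higher in these 3 pairs. A further list held 12 genes taken as other inhibitors of the pathway, of which Lgals3bp is not an established one. In M0 macrophages Usp18, which dampens the type I interferon receptor, was 5.74-fold lower. Lgals3bp was 2.04-fold lower there (log2 fold -0.98 with the length trend removed). Ptpn6, a phosphatase also called SHP-1, was 2.10-fold lower in LPS/INF macrophages. In those labelled IL4 none of the 12 was called. Of the 6 genes of the ligase that the SOCS box recruits, none was called in the M0 and IL4-labelled pairs. Elob (elongin B) and Rbx1 were 2.32-fold and 2.10-fold higher in LPS/INF macrophages, but their log2 folds were 0.09 and 0.63 with the length trend removed. Of 7 TLR4 pathway genes 0 were called in any G-1 pair. Of 3 measured insulin pathway genes, Igf1r was 3.72-fold lower and Irs2 2.26-fold higher in M0 macrophages, and Insr 2.17-fold lower in LPS/INF macrophages (log2 fold -0.17 with the length trend removed). In the M0, LPS/INF and IL4-labelled pairs 12.6%, 12.1% and 7.78% of all genes were lower, and 12.2%, 9.44% and 5.95% higher. Lists of 3 to 12 genes with 1 or 2 calls cannot be told apart from these shares.

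**Figure D5:**
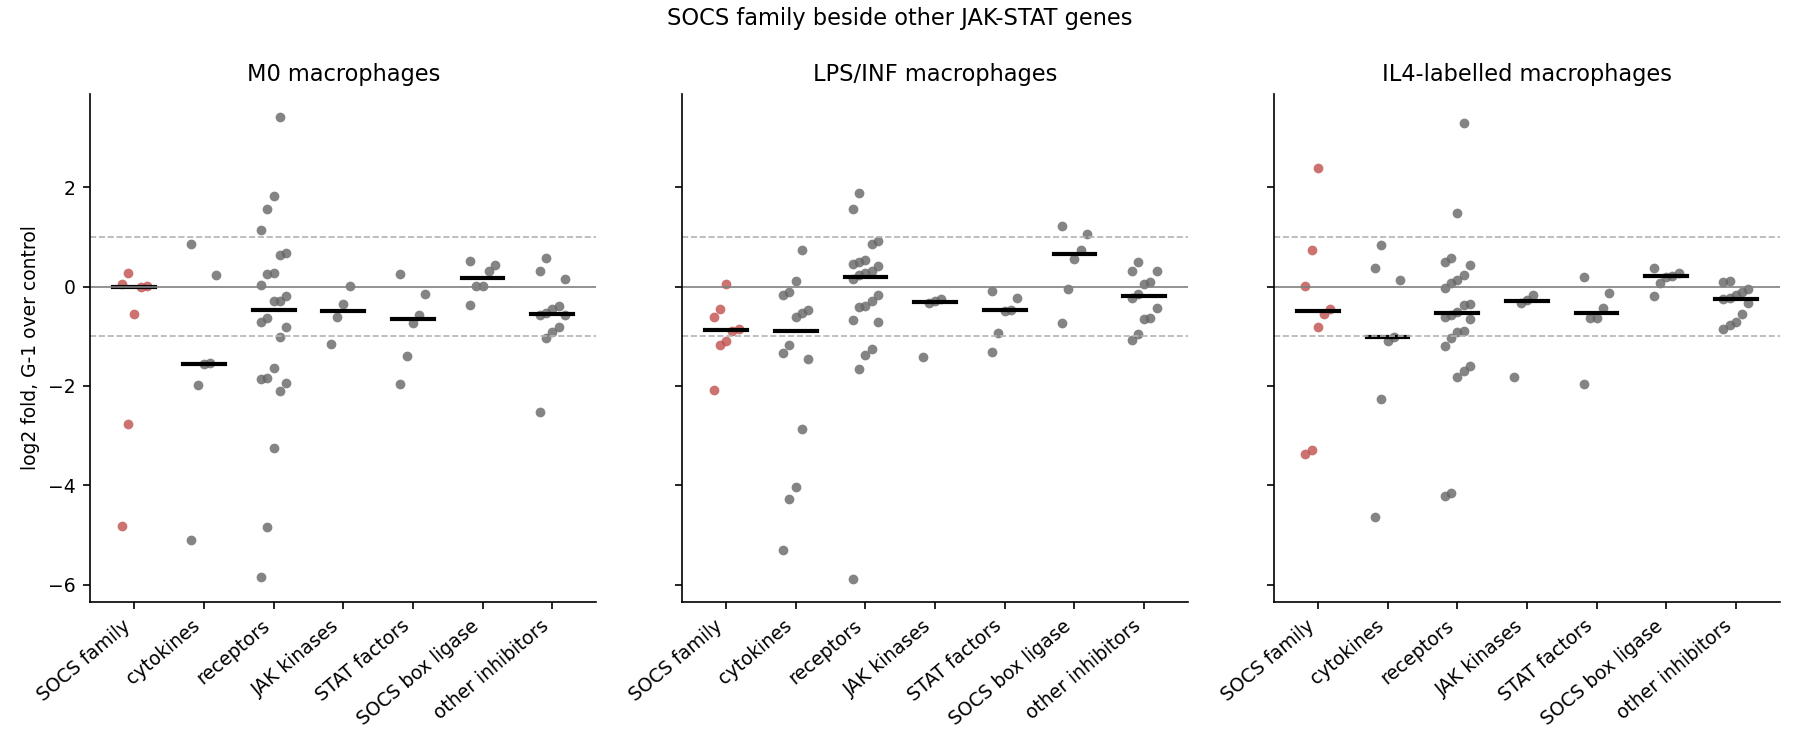
Log2 folds, G-1 over control, of every measured gene of the SOCS family (red) and every measured listed gene of 6 other groups of the JAK-STAT pathway (grey) in the 3 macrophage pairs; black bars are group medians, dashed lines mark 2-fold, and a count of 0 is drawn at a floor of 3 counts. The cytokine group had medians of -1.55, -0.88 and -1.01, and the SOCS family of -0.01, -0.86 and -0.50, in the order of the panels.

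Cell type markers also differed with G-1 in all 3 macrophage pairs, some lower and some higher. In the M0 pair, of 12 macrophage markers 6 were lower with G-1 and 0 higher, with a summed level of 11271 CPM against 40736 CPM without G-1. Of 8 neutrophil markers 3 were measured and 2 were lower, S100a9 with 2 counts against 100 and Ngp with 0 against 90; the sum was 1.14 CPM against 7.71 CPM, and Elane, Ly6g and Retnlg were at 0 in both. Of 8 fibroblast markers 3 were measured and all 3 lower, with 0.514 CPM against 4.996 CPM, while Col3a1, Pdgfra, Dcn and Lum were at 0 in both. Of 6 endothelial markers Kdr and Vwf were higher and Pecam1 lower, with 249.7 CPM against 33.8 CPM. Among lymphoid markers Cd4, which macrophages can express, was lower and the other 7 were at 0 in both libraries. All 4 measured M2 markers were lower with G-1 in the M0 pair, with a sum of 541 CPM against 2519 CPM. Of 4 measured M1 markers 3 were lower and Acod1 was higher, with 16.2 CPM against 110 CPM. In the pair labelled IL4 the macrophage markers summed to 23022 CPM with G-1 and 47131 CPM without, with 4 of 12 lower. All 3 measured M2 markers were lower there (Mrc1, Ccl24 and Clec10a), with a sum of 904 CPM with G-1 and 4662 CPM without. Of the endothelial markers Kdr was 6.89-fold and Vwf 2.64-fold higher and Pecam1 lower, with 60.3 CPM against 17.3 CPM. The sole measured neutrophil marker, S100a8, was 2.31-fold higher (51 counts against 23), and the sole measured dendritic marker, Zbtb46, was lower (3 counts against 25). In the LPS/INF pair the macrophage markers summed to 14610 CPM with G-1 and 21633 CPM without, with 4 of 12 lower and 1 higher. There 6 of 8 M1 markers were lower with G-1 and 0 higher, among them Nos2 (4.26-fold) and Il1b (3.70-fold), with a sum of 5621 CPM with G-1 and 11429 CPM without. Of 4 measured endothelial markers in that pair Pecam1 and Kdr were lower and 0 higher, with listed sums of 37.3 CPM with G-1 and 34.4 CPM without. Of 4 measured fibroblast markers Pdgfrb and Lum were lower and 0 higher, with 22.8 CPM against 39.1 CPM. The shares over all genes in these pairs are those given above for the members. The part of these markers in the SOCS family values was not tested.

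Genes whose level ran most like a member's over the 8 libraries were taken by Pearson's r of log2(CPM + 1) among 11957 genes. For Socs1 these were Surf4, Jak2 and Serpinb2 (r of 0.98 each), and for Socs2 Pip5k1b, Ccdc25 and Ktn1 (0.99 each). For Socs3 they were Apba3 (0.98), Oasl1 (0.97) and Gimap6 (0.97), and for Cish Ier3, Osbpl3 and Elk3 (0.98 each). The 8 points form 4 pairs of which a few libraries are far above the rest, so these values only describe likeness of pattern. Pearson's r also takes no account of the size of the differences. Apba3 ranged from 26.2 to 40.1 CPM, where Socs3 ranged from 0.405 to 714 CPM. Jak2, the kinase that SOCS1 binds, had 8135 counts in LPS/INF macrophages with G-1 and 24344 without, where Socs1 had 748 and 3534 counts.

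On GRCm38.p6, Socs1 lies on chromosome 16 from 10783808 to 10785536, Socs3 on chromosome 11 from 117966079 to 117970336, Cish on chromosome 9 from 107296659 to 107302784 and Socs2 on chromosome 10 from 95383903 to 95417321. Socs4 lies on chromosome 14, Socs5 on chromosome 17, Socs6 on chromosome 18 and Socs7 on chromosome 11, so that no pair of members are close neighbours.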

How the data were processed

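The authors sequenced 1 library of 3 pooled samples per group with paired ends (VAHTS Universal V6 kit) and deposited raw read counts for each gene symbol. Processing notes of the submitters name mm10 and DESeq2. The aligner, the counting tool and the strand setting were not given in the sources used here. Of 22173 symbols, 21948 matched RefSeq symbols on GRCm38.p6, and transcript lengths (longest coding transcript) came from GENCODE M21. CPM used library totals. Folds within a pair used TMM factors (edgeR 4.0.16), a minimum of 20 counts in the library with more, a call at 2-fold, a floor of 3 counts for 0, and exact 95% binomial intervals, which cover counting error only; PCR copies are not independent molecules. The 6 macrophage libraries were tested with edgeR's quasi-likelihood test (state and G-1 in the model), whose residual is the difference of effects between states and not the spread between cultures; DESeq2 1.42.0 was the other tool. The SE printed beside an edgeR log2 fold was the size of that fold divided by the square root of the test's F statistic. The scripts were tested on simulated data. Members, lists and tests were chosen with earlier results of these data known. Named pathway genes were, per list and comparison, up to 4 with the largest fold among genes with at least 100 counts, and sole calls; the neutrophil, fibroblast and endothelial genes were named after their values were seen. A gene of the pathway lists was left out of them after the analysis and is not reported here. No proteins are shown.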

Additional observations from a re-analysis of the deposited data

Results flagged for a closer look

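Socs2 was called in opposite directions by G-1 in 2 macrophage states. Its log2 fold with G-1 was 2.38 in the pair labelled IL4 (35 counts with G-1 against 7 without) and -1.18 in the LPS/INF pair (47 against 119). The difference was not tested, since each group has 1 library, and both values rest on few counts.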

How the results depend on the processing

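No call of a member in a pair changed under DESeq2 size factors, no filter or a prior count of 5, and none in the joint model under DESeq2 size factors in edgeR. Counts of called members that moved by over 1.5 times were as follows. Under total counts, 5 members rather than 3 were lower with G-1 in LPS/INF macrophages, 4 rather than 2 were lower in LPS/INF than M0 macrophages under G-1, and 1 rather than 2 was lower in the library labelled IL4 than in M0 without G-1. At a minimum of 100 counts, 0 members were higher with G-1 in the pair labelled IL4, 1 was lower in the library labelled IL4 than in M0 without G-1, and 0 were higher and 0 lower under G-1. With the length and GC trend removed, 1 was lower in LPS/INF than M0 macrophages under G-1 and 1 in the library labelled IL4 without G-1. On the near bound of the interval, 0 were lower in the library labelled IL4 without G-1 and 0 higher under G-1, and Socs2 lost its call with G-1 in LPS/INF macrophages (log2 fold -0.68). DESeq2 called 2 members for G-1 and 5 for LPS/INF, against 0 and 3 in edgeR. In edgeR's joint model 1 member call was gained with no filter on low counts, and 1 without the pair labelled IL4. Over all genes DESeq2 called 320 higher and 468 lower for G-1, and 1231 higher and 1267 lower for LPS/INF. The edgeR fit called 0 and 0 for G-1, and 593 and 587 for LPS/INF. Leaving out 1 state gave 0 to 2 members for G-1, with 2 without the LPS/INF pair. In that fit 422 of 11608 genes were called higher and 556 lower. Leaving out the libraries of 1 G-1 condition left no residual degrees of freedom and was not run. The cause of these moves was not tested. The joint model compares G-1 within each state through its state term. No paired analysis by replicate number was possible because the labels give none.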
